A study of Mus musculus with 12 samples.

Results

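The 7 S100 calcium-binding protein genes S100a1, S100a4, S100a6, S100a10, S100a11, S100a13 and S100a16 were followed in C22 cells by their gene symbols, out of 23282 genes listed in each library. They were chosen by name with earlier results of these data known. All 7 passed the filter on low counts that left 12425 genes for testing. C22 is a conditionally immortalized mouse club cell line, cloned from H-2Kb-tsA58 transgenic mice, which grows at a permissive temperature with interferon-γ and differentiates at a higher one without it, so every library comes from 1 clone carrying the same transgene. RNA was read by QuantSeq 3′ mRNA-seq, which counts tags near the 3′ end of each transcript. The 12 libraries formed 4 groups of 3, with serum removed in all of them before the experiment. NC cells carried the negative control and received no TGF-β1, and NC+TGFb1 cells carried the same control and received 20 ng/ml TGF-β1 for 24 h. siPDCD5 cells had Pdcd5 knocked down and received no TGF-β1, and siPDCD5+TGFb1 cells had the knockdown and the same TGF-β1 treatment. The comparisons address how Pdcd5 knockdown changes gene expression in club cells with and without TGF-β1.

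S100 proteins are small proteins with EF-hand loops that bind calcium, mostly work as dimers, have no enzyme activity of their own, and act by binding partner proteins when calcium rises. Different members bind non-muscle myosin, annexins or membrane channels, and some leave the cell and act on surface receptors. In the lung S100A4, also called FSP1, is widely used as a marker of fibroblasts and of epithelial cells taking on mesenchymal features, while S100A8 and S100A9 are abundant in neutrophils.

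Pdcd5 itself averaged 68.1 ± 4.68 CPM (counts scaled to a common library total, given as mean ± SD, with n = 3 here and throughout) in NC and 67.8 ± 1.69 in NC+TGFb1. It averaged 21.1 ± 1.07 CPM in siPDCD5 and 24.1 ± 2.26 CPM in siPDCD5+TGFb1, so the knockdown labels held in both treatments. Libraries held 12809857 to 17714828 counts and no 2 were identical. Of 9 club cell markers only Aldh1a1 averaged above 1 CPM, 5 had no count in any library, among them Scgb3a2 and Cyp2f2, and Scgb1a1, the defining secretoglobin of club cells, had at most 1 count in a library. Of the epithelial markers, Epcam had at most 1 count, whereas the keratins Krt8 and Krt18 averaged 189 ± 19.2 and 495 ± 16.7 CPM in NC. Fibroblast and mesenchymal markers were abundant, with 8 of 12 above 1 CPM. Leukocyte markers summed to at most 15.2 CPM in a library. The defining markers of the labelled cell type were therefore at or near 0. Whether the libraries of a group came from separate cultures is not given, so p-values measure only the spread between these libraries, which may be technical.

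All 7 genes lie on chromosome 3 (GRCm38). S100a1 (chr3:90511034-90514392, minus strand), S100a13 (chr3:90514435-90524581), S100a16 (chr3:90537254-90543151), S100a4 (chr3:90603771-90606045) and S100a6 (chr3:90612882-90624181) share a stretch of 113.1 kb, all but S100a1 on the plus strand. S100a1 and S100a13 stand head to head with 42 bases between their starts, and S100a6 begins 6836 bases after S100a4 ends. S100a11 (chr3:93520488-93526287) and S100a10 (chr3:93555080-93564643) lie 2.9 Mb further along, 28.8 kb apart and also on the plus strand. Annotated near copies of the 3′ end, where the tags fall, limit 2 of the genes. S100a11 has 5 processed pseudogenes, the closest of which, Gm12854, was 98.1% identical over 160 bases. S100a4 is overlapped by Gm42674, a transcript of which was 97.8% identical to the 3′ end of S100a4 over 268 bases. None of these was a row of its own in the files, and reads aligning to several places were counted, so the values of S100a11 and S100a4 may hold reads of these copies.

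The sequence before the transcription start is shown for S100a4 and S100a6, because these 2 neighbouring genes took most of the S100 reads and hold the called changes described first. Each line gives the 250 bases upstream of the RefSeq start on GRCm38.p6, plus strand, at chr3:90603520-90603769 for S100a4 and at chr3:90612644-90612893 for S100a6. Capitals mark CAGAC, the core letters of a SMAD box. SMAD proteins carry the TGF-β signal to DNA.
S100a4 upstream: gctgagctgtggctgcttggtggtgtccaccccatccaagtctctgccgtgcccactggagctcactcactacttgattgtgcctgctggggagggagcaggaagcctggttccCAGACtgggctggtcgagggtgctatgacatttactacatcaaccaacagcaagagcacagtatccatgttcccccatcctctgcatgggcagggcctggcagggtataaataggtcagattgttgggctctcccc
S100a6 upstream: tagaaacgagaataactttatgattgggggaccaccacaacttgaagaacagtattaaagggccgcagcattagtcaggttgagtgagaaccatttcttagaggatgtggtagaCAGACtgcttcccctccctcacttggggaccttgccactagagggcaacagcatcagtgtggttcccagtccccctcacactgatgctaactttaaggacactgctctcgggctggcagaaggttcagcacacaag
In both genes the CAGAC letters began at position -136, counted from the start. S100a4 held a second match in the window searched, on the minus strand at position 32, and the second listed start of S100a16 held 2, at positions -17 and -216. They are common: searched on both strands from 250 bases before to 50 bases after the start, 49.6% of 32851 mouse promoters held CAGAC at least once. The AP-1 letters TGANTCA, searched the same way and present in 7.81% of promoters, occurred in neither gene. They occurred 2 times before S100a11, beginning at positions -136 and -38, and once before the second listed start of S100a16. Sequences were matched for 6 of the 7 genes, S100a10 having no entry. S100a1, S100a13 and the first listed start of S100a16 held neither CAGAC nor TGANTCA, and S100a11 held no CAGAC. These matches are letters in a window and not measured binding sites.

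The 7 genes together took between 1.08% and 1.62% of all gene counts in a library, most of them from S100a6 with 0.566% to 1.05% and S100a4 with 0.333% to 0.626%. The values below are CPM after TMM scaling, a library-size correction. Between genes they are read counts and not a level per transcript length, so each gene was compared only with itself across groups, or as a ratio within a library.

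**Figure D1:**
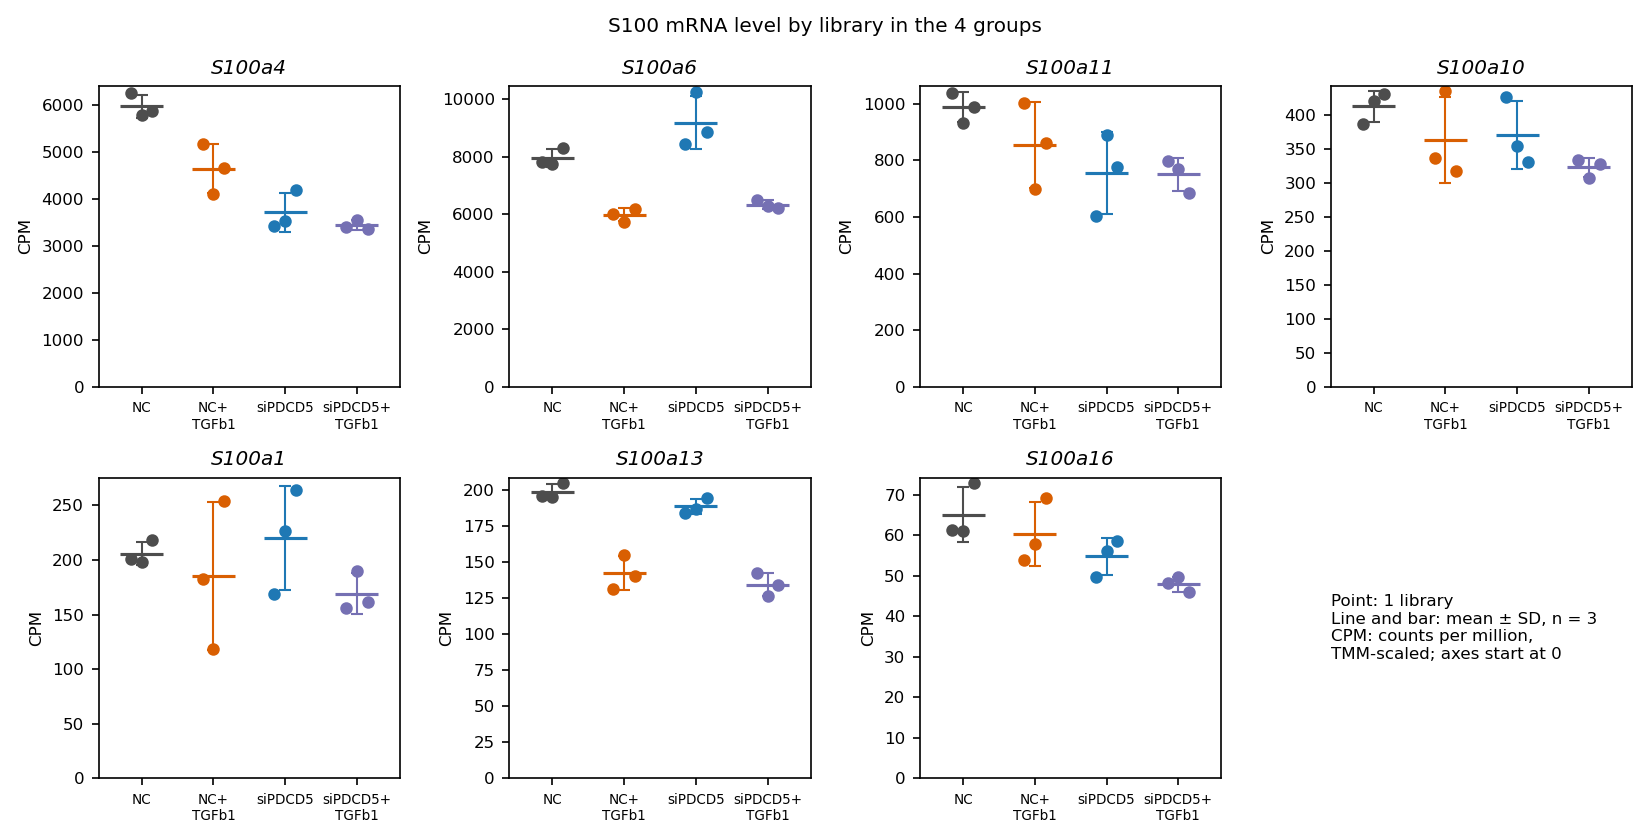
Level of the 7 S100 mRNAs in every library, in CPM on axes that start at 0, by group, with the mean and SD of 3 libraries. S100a4 is highest in the 3 NC libraries, S100a6 and S100a13 are lower in both TGF-β1-treated groups, and the NC+TGFb1 libraries of S100a1 are the most scattered.

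S100a4, whose protein binds non-muscle myosin IIA and loosens its filaments, was the member that changed most under knockdown. The NC libraries gave 6250.3, 5787 and 5856 CPM, and the siPDCD5 libraries gave 3415, 3529 and 4181 CPM. Every knockdown library lay below every NC library. S100a4 fell to 0.622 times the NC level, a log2 fold change of -0.69 (SE 0.11, edgeR quasi-likelihood adjusted p = 0.00224), lower than all but 3.11% of the genes tested. With TGF-β1 the 2 groups stood closer together. The NC+TGFb1 libraries gave 5158, 4110.3 and 4646 CPM and the siPDCD5+TGFb1 libraries gave 3409.7, 3558 and 3360.5 CPM, again without overlap. The log2 fold change of knockdown there was -0.43 (SE 0.11) and missed the threshold, with an edgeR adjusted p of 0.0591. It passed with DESeq2 (adjusted p = 0.00374), with no filter on low counts (0.0401) and without NC+TGFb1 replicate 2 (0.00927).

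TGF-β1 also lowered S100a4 in NC cells, to 0.778 times the untreated level (log2 fold change -0.36, SE 0.11, edgeR adjusted p = 0.0298), and the groups did not overlap. That call was near the threshold. It was lost when only the 6 libraries compared were fitted (adjusted p = 0.0774) and without any 1 of NC replicate 1 (0.111), NC replicate 2 (0.0626), NC replicate 3 (0.0641), NC+TGFb1 replicate 2 (0.0555) or NC+TGFb1 replicate 3 (0.0594), while the value stayed negative throughout. In siPDCD5 cells, where S100a4 was already low, the treated and untreated libraries overlapped and the log2 fold change of TGF-β1 was -0.11 (SE 0.11, edgeR adjusted p = 0.546). The difference between the 2 TGF-β1 responses was 0.26 on the log2 scale with a 95% confidence interval of -0.06 to 0.57 (edgeR adjusted p = 0.951), so a different response in knockdown cells was not shown. In order of mean, S100a4 stood at 5965 ± 249.9 CPM in NC, 4638 ± 524 in NC+TGFb1, 3708 ± 413 in siPDCD5 and 3443 ± 103 in siPDCD5+TGFb1. Of the neighbours in that order, NC and NC+TGFb1 did not overlap, and the other neighbouring pairs did.

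S100a6, or calcyclin, binds the calcyclin-binding protein and several annexins and is usually higher in dividing cells. Its NC libraries gave 7839.6, 7749.8 and 8311 CPM and its NC+TGFb1 libraries 6027, 5752 and 6184 CPM. In knockdown cells the untreated libraries gave 8466, 10243 and 8872 CPM and the TGF-β1-treated libraries gave 6499, 6306 and 6209 CPM. All treated libraries lay below all untreated ones, with or without knockdown. S100a6 fell with TGF-β1 to 0.752 times in NC cells (log2 fold change -0.41, SE 0.09, edgeR adjusted p = 0.00653) and to 0.689 times in siPDCD5 cells (log2 fold change -0.54, SE 0.09, edgeR adjusted p = 9.51e-04). These calls held in each of 13 alternative fits. Under knockdown S100a6 did not go the way of S100a4. Its siPDCD5 libraries all lay above the NC libraries, by a log2 fold change of 0.21 (SE 0.09) that was short of the threshold (edgeR adjusted p = 0.296), and with TGF-β1 the same difference was 0.08 (SE 0.09, edgeR adjusted p = 0.771), also without overlap. By mean the order was siPDCD5 with 9194 ± 931 CPM, NC with 7967 ± 301 CPM, siPDCD5+TGFb1 with 6338 ± 148 CPM and NC+TGFb1 with 5988 ± 219 CPM, and no neighbours overlapped.

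The ratio of S100a4 to S100a6 counts within a library does not depend on scaling to library size. It was examined after the values of both genes had been seen and is given as a description. The ratio was 0.797, 0.747 and 0.705 in NC and 0.856, 0.715 and 0.751 in NC+TGFb1. In siPDCD5 it was 0.403, 0.345 and 0.471, and in siPDCD5+TGFb1 it was 0.525, 0.564 and 0.541. Every knockdown library lay below every control library in both treatments. With TGF-β1 the ratio was higher in all knockdown libraries than without it, from a mean of 0.406 ± 0.063 to 0.543 ± 0.020, whereas in control cells the treated and untreated libraries overlapped.

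**Figure D2:**
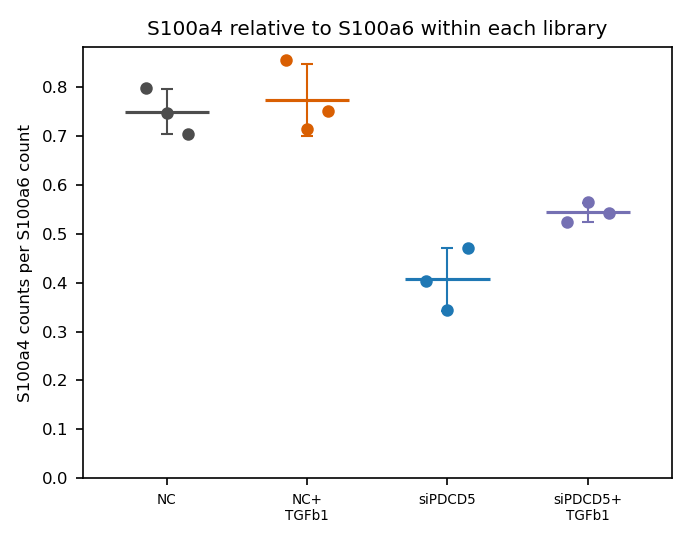
Counts of S100a4 per count of S100a6 in each library, by group, with the mean and SD of 3 libraries; the axis starts at 0. The 6 knockdown libraries lie between 0.345 and 0.564 and the 6 control libraries between 0.705 and 0.856.

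S100a10 and S100a11 are the annexin partners of the set. S100A10 binds annexin A2 at the membrane and does not need calcium for it, and S100A11 binds annexin A1. S100a10 gave 387, 420.25 and 430.2 CPM in NC, 336, 436 and 318 in NC+TGFb1, 427, 354 and 331 in siPDCD5, and 334, 307 and 328 in siPDCD5+TGFb1. Each group overlapped its neighbours and no comparison of S100a10 passed. Replicate 2 of NC+TGFb1 decided its response to TGF-β1 in NC cells, which was -0.18 on the log2 scale (SE 0.12, edgeR adjusted p = 0.372) with that library and -0.34 (adjusted p = 0.0302) without it.

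S100a11 gave 1039, 933 and 989.7 CPM in NC, and 1002, 699 and 863 CPM in NC+TGFb1. It gave 603, 889.9 and 775 CPM in siPDCD5, and 798, 769.6 and 686 CPM in siPDCD5+TGFb1. The siPDCD5 libraries all lay below the NC libraries, with a log2 fold change of -0.38 (SE 0.14, 95% confidence interval -0.69 to -0.08), but the edgeR adjusted p was 0.193 and no alternative fit called it. The 2 TGF-β1 comparisons and knockdown with TGF-β1 gave overlapping libraries and log2 fold changes of -0.21, -0.01 and -0.19. Anxa2, the partner of S100a10, was looked up after the values had been seen and passed in no comparison either. Its log2 fold changes were 0.32 and 0.37 with TGF-β1 in NC and siPDCD5 cells (edgeR adjusted p = 0.189 and 0.120) and -0.29 and -0.24 with knockdown (0.389 and 0.530).

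S100a13, whose protein takes part in the export of FGF1 and interleukin-1α, which lack a secretion signal, had the smallest standard errors of the set. Its NC libraries read 196, 195 and 204 CPM and its siPDCD5 libraries 184, 187 and 194 CPM. With TGF-β1 the NC cells gave 131, 154 and 140.4 CPM and the knockdown cells 142, 126 and 134 CPM. Treated and untreated libraries were apart in both backgrounds. S100a13 fell with TGF-β1 to 0.716 times in NC cells (log2 fold change -0.48, SE 0.08, edgeR adjusted p = 0.00102) and to 0.713 times in siPDCD5 cells (log2 fold change -0.49, SE 0.08, edgeR adjusted p = 9.34e-04), and the 13 alternative fits called both. The difference between these responses was -0.01 with a 95% confidence interval of -0.26 to 0.25. Knockdown gave log2 fold changes of -0.08 without and with TGF-β1 (SE 0.08 in each), which did not pass (edgeR adjusted p = 0.748 and 0.744).

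S100a1, best known in muscle where it acts on the calcium pump and the calcium release channel, varied most within groups. It gave 201, 199 and 218 CPM in NC, 183, 119 and 254 in NC+TGFb1, 169, 226 and 265 in siPDCD5, and 156, 190.3 and 161 in siPDCD5+TGFb1. All neighbouring groups overlapped, the standard error of each fold change was 0.21, and none of its comparisons passed. Its log2 fold change with TGF-β1 in NC cells was -0.15 with all libraries and 0.09 without NC+TGFb1 replicate 2. In siPDCD5 cells the TGF-β1 value was -0.38 (95% confidence interval -0.84 to 0.08), an interval that holds the -0.49 of its head-to-head neighbour S100a13, and the 2 genes were not tested against each other.

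S100a16, a broadly expressed member, was the least counted, with at least 644 counts in each library. It gave 61.4, 61.0 and 72.9 CPM in NC, 53.8, 57.9 and 69.2 in NC+TGFb1, 49.8, 56.1 and 58.7 in siPDCD5, and 48.2, 49.7 and 45.9 in siPDCD5+TGFb1. The siPDCD5 libraries lay below the NC libraries and the siPDCD5+TGFb1 libraries lay below those of the other 3 groups. The gap to siPDCD5 was narrow, with a highest treated library of 49.68 CPM and a lowest untreated one of 49.82 CPM. TGF-β1 gave log2 fold changes of -0.11 in NC cells (SE 0.11, edgeR adjusted p = 0.602) and -0.20 in siPDCD5 cells (SE 0.11, edgeR adjusted p = 0.280). Neither passed. The log2 fold change of knockdown was -0.25 without TGF-β1 (SE 0.11, edgeR adjusted p = 0.311) and -0.33 with it (SE 0.11, edgeR adjusted p = 0.192), and neither was called in an alternative fit.

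**Figure D3:**
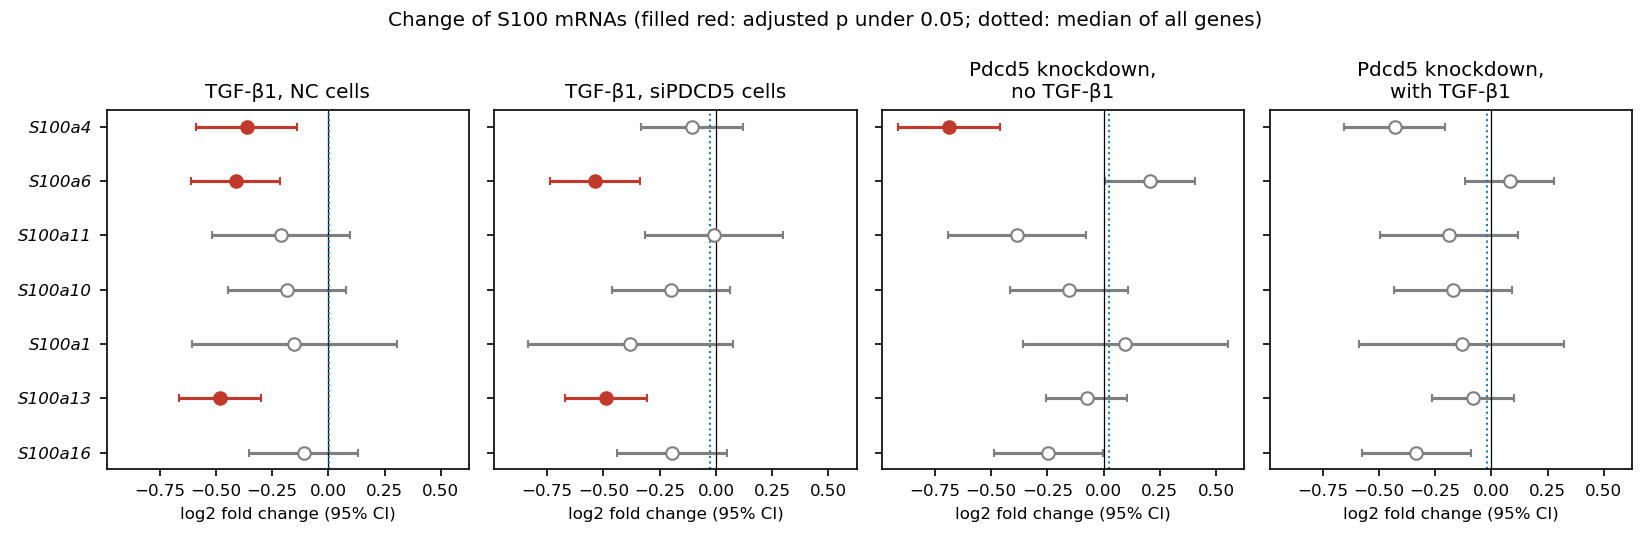
Log2 fold change of the 7 S100 mRNAs with the 95% confidence interval of the edgeR fit in the 4 comparisons; filled red points have an adjusted p under 0.05 and the dotted line is the median of all 12425 genes tested. S100a6 and S100a13 are lower after TGF-β1 in both backgrounds, and under knockdown S100a4 lies furthest to the left.

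Most estimates for the S100 genes were negative. The 7 were chosen with earlier results of these data known, so the shares below describe them and are not a test. After TGF-β1 in NC cells all 7 estimates were negative, with a median log2 fold change of -0.21 beside 0.005 for all genes tested. There 3 of 7 were called lower, when 6.77% of all genes were, and 3 of 7 were lower without overlap, when 14.3% of all genes were. After TGF-β1 in siPDCD5 cells all 7 estimates were again negative, with a median of -0.20 beside -0.03. There 2 of 7 were called lower against 7.61% of all genes, and 3 of 7 were lower without overlap against 18.1%. These 2 comparisons use different libraries. Knockdown without TGF-β1 gave negative estimates for 5 of 7, a median of -0.15 beside 0.02, and 1 call against 2.54% of all genes called lower. Without overlap 4 of 7 were lower, against 12.5%, and S100a6 was higher, against 10.6% of all genes. At an unadjusted p under 0.05 there were 4 members, against 1949 of 12425 genes. S100a4, S100a11 and S100a16 were lower and S100a6 was higher. Knockdown with TGF-β1 gave 6 negative estimates, a median of -0.17 beside -0.02 and 0 calls by edgeR, where 1.22% of all genes were called lower. At an unadjusted p under 0.05 there were 2 members, S100a4 and S100a16, against 1711 of 12425 genes. DESeq2 called S100a4. Without overlap 2 of 7 were lower, against 10%, and S100a6 was higher, against 8.84%. The 2 knockdown comparisons share libraries with the TGF-β1 comparisons. In the test of the difference between the TGF-β1 responses, edgeR called 0 members and 0% of all genes. No member had an unadjusted p under 0.05 there, against 638 of 12425 genes, and DESeq2 called 15 genes.

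Markers of cell type changed in the same comparisons. The summed level of the fibroblast and mesenchymal markers was 6246 to 6638 CPM in NC and 10040 to 10835 in NC+TGFb1. It was 5194 to 5479 in siPDCD5 and 7563 to 8120 in siPDCD5+TGFb1. Of this list 5 of 8 tested were called higher and 2 lower after TGF-β1 in NC cells, beside 8.57% and 6.77% of all genes. Col1a1, a chain of collagen I, made up most of the summed rise, at 2719 ± 76.4 CPM in NC and 6119 ± 368 CPM in NC+TGFb1. The 2 markers called lower there were Vim, the intermediate filament vimentin, at 2082 ± 164 and 1360.3 ± 293 CPM, and Dcn, the proteoglycan decorin, at 95.7 ± 4.95 and 22.6 ± 1.13 CPM. Under knockdown 2 of these 8 were called higher and 3 lower without TGF-β1, beside 0.901% and 2.54% of all genes. With TGF-β1 1 was called higher and 2 lower, beside 0.33% and 1.22%. Col1a2 and Dcn were called higher without TGF-β1, with log2 fold changes of 1.74 and 0.59, and Dcn with it, at 0.88. Acta2 and Col1a1 were called lower in both treatments, and Col3a1 only without TGF-β1. Aldh1a1, a retinal dehydrogenase and the 1 club cell marker above 1 CPM, was called lower in all 4 comparisons. It stood at 553 ± 5.08 CPM in NC, 238 ± 6.86 in NC+TGFb1, 305 ± 18.3 in siPDCD5 and 160.2 ± 4.94 in siPDCD5+TGFb1. The summed general epithelial markers also stood at 676 to 699 CPM in NC and 1242 to 1678 CPM in NC+TGFb1. Krt8 and Krt18 made up most of that sum and were called higher there, with log2 fold changes of 1.36 and 1.05. Cdh1 and Krt7 were not called, with log2 fold changes of -0.58 and -0.06, and Epcam and Krt19 were too low to test. Of 15 other airway and alveolar epithelial markers 4 were tested. Among them Krt14, a keratin, was called higher with TGF-β1 in NC cells, at 10.8 ± 1.02 CPM in NC and 187 ± 20.9 in NC+TGFb1. Knockdown lowered Krt14, with log2 fold changes of -1.60 without and -1.18 with TGF-β1. Aqp5, Pdpn and Ager were called in none of these comparisons. In bulk RNA fewer cells of a type and less RNA per cell cannot be told apart, and the part of these marker changes in the S100 values was not tested.

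Of 11 other S100 genes 10 were listed and 5 tested, and only S100a3 and S100b averaged at least 1 CPM over all libraries. S100a3 averaged 5.63 ± 0.864 CPM in NC and passed in no comparison. S100b averaged 0.931 ± 0.209 CPM in NC and 1.61 ± 0.268 CPM in siPDCD5, with no call either. S100a8 and S100a9 had at most 7 counts in any library. The 1 gene called among them was S100a2, a p53 target of squamous epithelium, which is named because it was the only call and was chosen after its values were seen. It had 14 to 22 counts in NC libraries and 1 to 6 in NC+TGFb1, and 11 to 24 in siPDCD5 and 2 to 4 in siPDCD5+TGFb1. It fell with TGF-β1 by 2.29 on the log2 scale in NC cells (SE 0.53, edgeR adjusted p = 0.00754) and by 2.30 in siPDCD5 cells (SE 0.54, edgeR adjusted p = 0.00845). Its counts were too low to size the change closely, and it passed the low-count filter only through the untreated groups, where it is high, so the test of its fall is not independent of that filter.

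The annexins, calcium-dependent membrane binders and partners of several S100 proteins, changed in both directions. Over all genes, 8.57% were called higher with TGF-β1 in NC cells and 8.5% in siPDCD5 cells, and 6.77% and 7.61% were called lower. Of 10 annexins tested, TGF-β1 in NC cells raised 1 and lowered 2. Anxa8 rose by a log2 fold change of 0.51, and Anxa1, the partner of S100a11, and Anxa3 fell by 0.70 and 0.67 on the log2 scale. In siPDCD5 cells Anxa8 (0.48) and Anxa5 (0.43) rose and Anxa9 fell by 0.32. Knockdown lowered Anxa3 without TGF-β1, by 0.42, and no annexin passed with TGF-β1, where 2.54% and 1.22% of all genes were called lower. The median of the annexins was 0.02 and -0.06 in the TGF-β1 comparisons, in NC and then siPDCD5 cells, and -0.17 and -0.11 under knockdown, without and then with TGF-β1.

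Among 21 tested receptors and other binding partners, TGF-β1 raised 3 and lowered 4 in NC cells and raised 4 and lowered 4 in siPDCD5 cells. Beside them, 8.57% of all genes were called higher and 6.77% lower in NC cells, and 8.5% and 7.61% in siPDCD5 cells. Tgm2, the transglutaminase that cross-links proteins including S100 members, rose by 0.80 and 1.17 on the log2 scale, in NC and siPDCD5 cells. Plaur, the urokinase receptor, rose by 0.67 in siPDCD5 cells. Plat, the plasminogen activator that binds the S100A10 and annexin A2 complex, fell by 1.65 and 1.79, and Tlr4, a receptor for extracellular S100A8 and S100A9, fell by 0.63 and 0.66. Alcam, a cell adhesion molecule that also binds S100B, fell by 1.24 and 1.15 with TGF-β1 and also fell with knockdown, by 0.63 without and 0.53 with TGF-β1. Alcam stood at 235 ± 6.59 CPM in NC, 99.5 ± 3.49 in NC+TGFb1, 152 ± 8.21 in siPDCD5 and 68.7 ± 1.79 in siPDCD5+TGFb1. Myh10, a non-muscle myosin heavy chain, fell by 0.54 with knockdown without TGF-β1. Under knockdown 0 were called higher and 2 lower without TGF-β1, and 0 higher and 1 lower with it, where 0.901% and 0.33% of all genes were called higher and 2.54% and 1.22% lower. Myh9, the heavy chain that S100A4 binds, was looked up after the values had been seen and rose with TGF-β1 by 0.40 and 0.46 in NC and siPDCD5 cells. The median over the list was 0.10 and 0.14 with TGF-β1 and -0.10 and -0.13 with knockdown.

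Among other genes with EF-hand calcium-binding domains, 37 were tested. With TGF-β1, 9 were called higher and 3 lower in NC cells and 9 higher and 2 lower in siPDCD5 cells, with medians of 0.14 and 0.13. Over all genes the called shares were 8.57% higher and 6.77% lower in NC cells, and 8.5% higher and 7.61% lower in siPDCD5 cells. Fstl1, a secreted glycoprotein, rose by log2 fold changes of 1.94 and 2.13, and Nucb2, a calcium-binding Golgi protein, by 1.04 and 0.95. Chp1, a partner of the sodium-proton exchanger, fell by 0.93 and 0.77. Ncald, a neuronal calcium sensor, fell by 1.72 in NC cells, and Lcp1, an actin bundler of leukocytes, fell by 1.41 in siPDCD5 cells, both at under 5 CPM in each library. Ncald had 18 to 33 counts in NC libraries and 4 to 11 in NC+TGFb1. It passed the low-count filter only through the untreated groups, where it is high, so the test of its fall is not independent of that filter. Knockdown raised none and lowered 3 without TGF-β1 and 2 with it, beside 2.54% and 1.22% of all genes called lower. Rcn3, a calcium-binding protein of the endoplasmic reticulum, fell by 1.09 and 1.27, Fstl1 fell by 0.46 without TGF-β1 and the related Rcn1 fell by 0.39 with it. The medians under knockdown were -0.08 and -0.05.

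**Figure D4:**
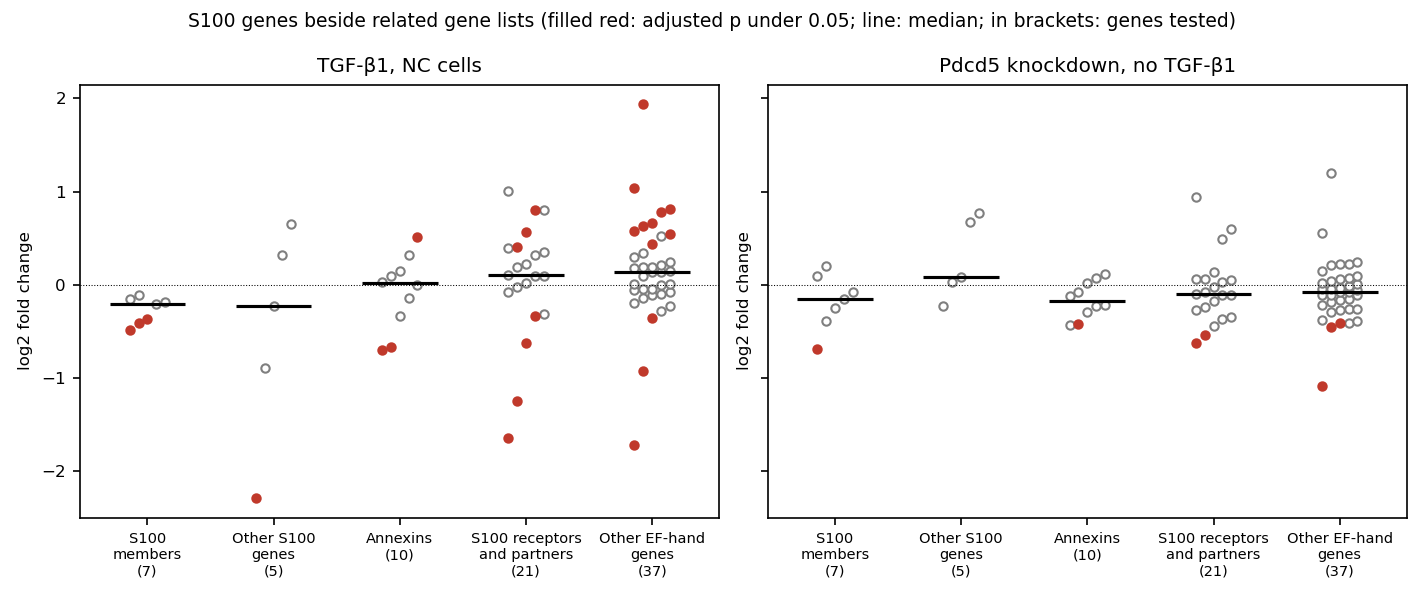
Log2 fold change of each tested gene in the S100 set and 4 related lists, after TGF-β1 in NC cells (left) and after Pdcd5 knockdown without TGF-β1 (right); filled red points have an edgeR adjusted p under 0.05 and lines are medians. In the left panel the 7 S100 genes all lie below 0, while the other EF-hand genes reach 1.94 and have a median of 0.14.

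Likeness of pattern over the 12 libraries was measured as the root mean square difference of centred log2 CPM against 9121 genes, where 0 would be the same pattern. The genes nearest to S100a4 were Ppef1 (0.098) and Pigk (0.132). The nearest to S100a6 were Tmem106c (0.077) and Gigyf1 (0.077). For S100a1 they were Lamb2 and Dcxr, for S100a10 Pbrm1 and Eny2, for S100a11 Sdr39u1 and Zfp280d, and for S100a16 Os9 and Crip1. Within the set S100a6 and S100a13 were closest at 0.148, S100a1 and S100a10 were farthest apart at 0.408, and the neighbours S100a4 and S100a6 were nearly as far at 0.399.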

How the data were processed

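The authors prepared QuantSeq 3′ libraries, aligned single-end reads to mm10 with Bowtie2, and took gene counts from Bedtools coverage, keeping reads with several alignments. They deposited raw counts per gene, 1 table for each library. The annotation and the use of strand are not given in the sources used here, and the quantile normalization and edgeR step named by the study are not part of the deposited counts. Groups were taken from the labels. The 7 members and all gene lists were chosen with earlier results of these data known.

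In R 4.3.3, edgeR 4.0.16 fitted all 12 libraries and 4 groups in 1 quasi-likelihood model after filterByExpr and TMM scaling, with two-sided tests and Benjamini-Hochberg adjustment over 12425 genes and a threshold of 0.05. Levels are TMM-scaled CPM and log2 values have a prior count of 2. The square root of the common dispersion was 0.132. Alternatives were upper-quartile factors, DESeq2 1.42.0, quantile normalization with limma 3.58.1, other filters, fewer libraries, a replicate block and leaving out each library. The scripts were tested on simulated data.

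All 7 members are named. From the other lists the text gives counts and medians, other S100 genes averaging at least 1 CPM, called annexins and partners (at most the 4 with the largest change per comparison), the 2 largest called rises and 2 largest called falls of the EF-hand genes, and the 2 genes nearest to each member, except those of S100a13, which are not reported here. Anxa2, Myh9, S100a2 and the marker genes named stand outside this rule or beside it. Positions are from GENCODE on GRCm38, near copies are at least 90% identical over at least 75 of the last 300 transcript bases, and promoters are from RefSeq.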

Additional observations from a re-analysis of the deposited data

How the results depend on the processing

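The falls of S100a6 and S100a13 with TGF-β1 and of S100a4 with knockdown in untreated cells passed in each of 13 alternatives. S100a4 with TGF-β1 in NC cells passed in 7 of 13, with values from -0.56 (quantile normalization with limma) to -0.28, and in siPDCD5 cells it passed with quantile normalization alone (-0.30, adjusted p = 0.0224). Knockdown with TGF-β1 had 0 members called, and 1, S100a4, with DESeq2, with no filter on low counts and without NC+TGFb1 replicate 2, so leaving out 1 library gave 0 to 1. Pairing of the libraries by the replicate numbers of the labels was not shown (12 same-numbered pairs, r from -0.32 to 0.17, 2 over 0.1). Both pairs over 0.1 belonged to TGF-β1 in NC cells, where r was 0.166, 0.166 and 0.0074. Such correlations cannot settle whether the libraries were paired. The replicate block changed no member's call but moved all genes called under knockdown with TGF-β1 from 192 to 107.

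Estimates near 0 changed sign. Leaving out 1 library gave, for S100a1, -0.44 to 0.087 with TGF-β1 in NC cells, -0.057 to 0.25 with knockdown in untreated cells and -0.37 to 0.16 in treated cells, and for S100a11 -0.14 to 0.12 with TGF-β1 in siPDCD5 cells. The difference between TGF-β1 responses then ranged from -0.47 to 0.063 for S100a1, -0.11 to 0.14 for S100a10, -0.059 to 0.059 for S100a13 and -0.16 to 0.018 for S100a16. It was 0.0011 for S100a13 with DESeq2, 0.043 for S100a6 and 0.019 for S100a10 with quantile normalization, and 0.0063 for S100a10 and 0.014 for S100a13 with no filter. The cause was not tested. All genes called under knockdown were 427 without and 192 with TGF-β1, 714 and 459 with DESeq2, and 44 with TGF-β1 when only the libraries compared were fitted. Leaving out 1 library gave as few as 167 without TGF-β1 and 73 to 322 with it. The difference between responses had 0 genes, 15 with DESeq2 and 2 without NC+TGFb1 replicate 2. With upper-quartile factors all 28 group means stayed within 1 SD.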
